A study of Mus musculus with 4 samples.

Results

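The 7 genes described here encode the cyclin-dependent kinase inhibitors of the mouse: Cdkn1a (p21), Cdkn1b (p27), Cdkn1c (p57), Cdkn2a (p16), Cdkn2b (p15), Cdkn2c (p18) and Cdkn2d (p19). Cdkn2a also encodes Arf, which is not such an inhibitor. They were chosen by gene name, and 12 of the 55675 gene probes with a value on every array carried one of these names. A probe was taken as measured where the scanner software called it well above background. Of the 12 probes, 9, from 6 genes, met this on at least 1 array, and 7, from 5 genes, met it on all 4 arrays. Across all probes 22931 genes or transcripts met the first condition and 19117 the second.

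The inhibitors were measured on 4 one-colour (Cy3) Agilent arrays, with 1 array for each of 4 genotypes of male C57BL/6 mice. The genotypes were WT, Aspp1-/-, p53-/- and Aspp1-/-p53-/-. The cells were LSK cells, a fraction of bone marrow without lineage markers but with Sca-1 and cKit, which contains the blood stem cells and multipotent progenitors. Aspp1, encoded by Ppp1r13b, is a binding partner of p53. Mice labelled p53-/- carried floxed p53 alleles and Mx1-Cre, a recombinase under an interferon-inducible promoter that also acts outside blood cells, and mice labelled Aspp1-/-p53-/- carried the Aspp1 deletion as well. The labels name no Cre for WT and Aspp1-/- mice. Animals of every genotype, WT included, received pIpC, a synthetic RNA that induces interferon and thereby Cre. It was given 5 times from 8 weeks of age, and 4 weeks after it the cells were sorted, when the mice were 12 weeks old. The design states 400 μg of pIpC for all mice, while the dose in the sample labels runs from 400 μg for WT through 401 μg and 402 μg to 403 μg for Aspp1-/-p53-/-. RNA of 3 mice was pooled per genotype and there were no replicate arrays. A difference between 2 arrays therefore has no spread between animals, and only the error that the scanner software estimates for each spot.

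These inhibitors bind cyclin-dependent kinases and hold cells before DNA replication. The Cip/Kip members (Cdkn1a, Cdkn1b and Cdkn1c) bind many cyclin and kinase pairs. The Ink4 proteins, p16 of Cdkn2a and those of Cdkn2b to Cdkn2d, bind Cdk4 and Cdk6, so that the retinoblastoma protein stays active. Cdkn1a is a direct transcriptional target of p53, Cdkn1c and Cdkn1b are known for keeping blood stem cells out of cycle, and Cdkn2a is normally kept silent in young stem cells by Polycomb proteins.

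All 4 arrays lay on 1 slide and had 1 scan date, with WT and Aspp1-/- in slide row 1 and both arrays without p53 in row 2. Slide row, Mx1-Cre and loss of p53 cannot be told apart. No spot was saturated on any array. The signal of the Ppp1r13b probe was 13182 on the WT, 2247 on the Aspp1-/-, 12759 on the p53-/- and 2060.1 on the Aspp1-/-p53-/- array, and that of the Trp53 probe was 730.4, 820.2, 164 and 169, so both followed the labels. Each probe was still well above background on the arrays labelled as lacking its gene. All 11 of the LSK and stem cell markers, among them Kit, Ly6a and Cd34, were well above background on every array. Their summed signal, as a multiple of each array's 75th percentile, ranged from 366 to 374.

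The probe sequences are shown first, because probes of the same inhibitor gave different results and each reads a different stretch of its gene. Array probes are 60 bases long, and 30 bases of each are printed 5′ to 3′. For Cdkn1a, 3 probes lay on chromosome 17, plus strand (mm9, per the file headers). A_51_P363947, designed on NM_007669, lay at chr17:29237377-29237436. A_55_P1976204, designed on ENSMUST00000122348, lay at chr17:29235299-29235358, and A_55_P1986282, designed on NM_001111099, at chr17:29227986-29228045. Their starts were therefore 2.078 kb and 9.391 kb upstream of the start of A_51_P363947. RefSeq lists both NM_007669 and NM_001111099 as Cdkn1a transcripts. The capitals in the stretch of A_55_P1976204 mark its last ATG.
Cdkn1a A_51_P363947, bases 1 to 30: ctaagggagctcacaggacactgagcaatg
Cdkn1a A_55_P1976204, bases 31 to 60: tcttgtgtttcagccacaggcaccATGtcc
Cdkn1a A_55_P1986282, bases 1 to 30: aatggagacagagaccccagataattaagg
For Cdkn1b, on chromosome 6, plus strand, A_55_P2026562 (NM_009875) lay at chr6:134875424-134875483 and A_52_P673863 (ENSMUST00000067327) at chr6:134873606-134873665, 1.818 kb upstream. For Cdkn2b, on chromosome 4, minus strand, A_55_P1988183 (NM_007670) lay at chr4:88952276-88952335. It was the only Cdkn2b probe well above background on any array.
Cdkn1b A_55_P2026562, bases 1 to 30: gtgcttaaaaggttgcatactgagccaagt
Cdkn1b A_52_P673863, bases 1 to 30: attagccaagcaaccataagactctagtca
Cdkn2b A_55_P1988183, bases 1 to 30: ccagtgatgaattgtagtggtagcaggtta
The exon or intron in which each probe lies was not analysed here.

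The region upstream of Cdkn1a is shown because Cdkn1a is the member whose level differed most between genotypes and the gene lost in 2 of them encodes a transcription factor. The RefSeq promoter table (GRCm38.p6) held 9 windows for 6 of the 7 members, each from 250 bases before to 50 bases after a start site, and none for Cdkn1c. Cdkn1a had 2 start sites, 2790 bases apart. The 250 bases before each are printed on the plus strand. In the window before the upstream start, capitals mark matches to the 10-letter arm of the p53 consensus, searched on both strands. In the window before the downstream start, capitals mark TATAA and GGGCGG.
chr17:29090729-29090978, GRCm38.p6, plus strand: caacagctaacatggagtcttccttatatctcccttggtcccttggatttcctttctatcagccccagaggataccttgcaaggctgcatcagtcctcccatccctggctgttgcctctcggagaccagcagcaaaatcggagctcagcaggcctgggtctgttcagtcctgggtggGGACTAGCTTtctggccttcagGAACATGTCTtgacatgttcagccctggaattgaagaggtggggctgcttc
chr17:29093519-29093768, GRCm38.p6, plus strand: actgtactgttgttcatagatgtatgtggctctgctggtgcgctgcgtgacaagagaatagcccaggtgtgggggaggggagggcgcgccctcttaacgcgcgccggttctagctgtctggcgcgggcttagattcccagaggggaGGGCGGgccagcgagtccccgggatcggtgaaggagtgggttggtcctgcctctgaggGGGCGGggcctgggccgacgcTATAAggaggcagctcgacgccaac
The window before the upstream start held 2 p53-arm matches, GGACTAGCTT at base -73 and GAACATGTCT at base -51 from the start site, neither overlapping another motif searched. Of 32851 windows in the table, 8.36% held at least 1 such match and 0.359% held 2 or more. The Cdkn1a window before the downstream start held none, with TATAA at base -25 and GGGCGG at bases −104 and -46. TATAA occurred in 24.9% of all windows and GGGCGG in 35.7%, both strands counted. Among the other members, 1 p53-arm match lay before Cdkn2d, at base −102, overlapping a GGGCGG. A match is a description of letters and not evidence of binding.

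Cdkn1a, the p21 gene, was the member with the largest differences. Probe A_51_P363947, printed on each array as 10 spots, gave a mean signal of 2531 on the WT, 2345 on the Aspp1-/-, 1551 on the p53-/- and 819 on the Aspp1-/-p53-/- array. The arrays' own 75th percentiles, by which signals were scaled, were 571, 599, 580.4 and 537. After scaling, the order was WT, Aspp1-/-, p53-/- and Aspp1-/-p53-/-, from high to low. The 10 spots ran on the log2 scale from 2.10 to 2.22 in WT, from 1.92 to 2.04 in Aspp1-/-, from 1.36 to 1.46 in p53-/- and from 0.53 to 0.65 in Aspp1-/-p53-/-. After scaling, no spot of one array overlapped the spots of another. Before scaling, the highest Aspp1-/- spot, at 2465, exceeded the lowest WT spot, at 2450. Repeated spots measure the array and not the animals: their standard deviation was between 0.030 and 0.041, while the scanner's error of a difference between 2 arrays was 0.20.

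**Figure D1:**
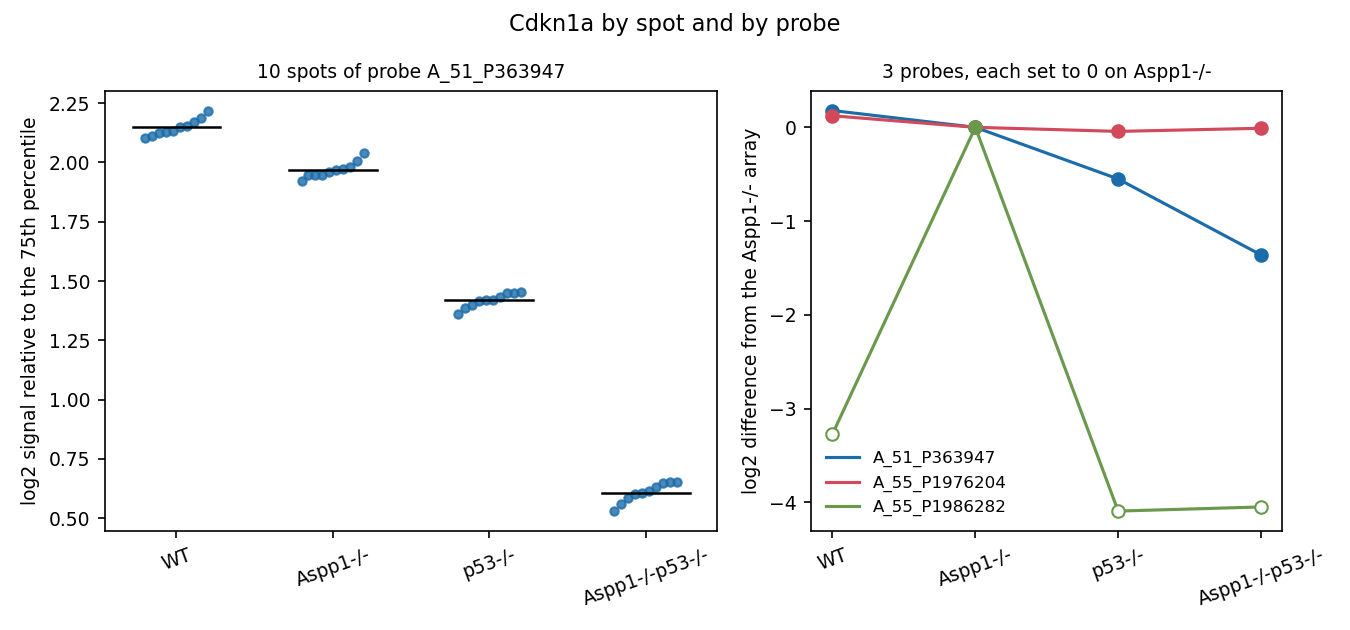
Left, log2 signal relative to the array's 75th percentile for the 10 spots of Cdkn1a probe A_51_P363947 on each array, spread sideways in order of value, with a line at the mean. Right, the 3 Cdkn1a probes as log2 differences from their own value on the Aspp1-/- array, with open circles for probes not well above background. The 10 spots form 4 separate bands from 2.10 to 2.22 in WT down to 0.53 to 0.65 in Aspp1-/-p53-/- cells, and the 3 probes do not follow each other.

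A 2-fold difference, or 1 on the log2 scale, was used as the rule of size in every comparison. By this rule Cdkn1a (A_51_P363947) fell 2.91-fold in Aspp1-/-p53-/- against WT cells, with a log2 difference of −1.54 and a scanner error of 0.20. It also fell 2.57-fold in Aspp1-/-p53-/- against Aspp1-/- cells, with a log2 difference of −1.36. The same probe was at −0.73 in p53-/- against WT cells, and at −0.81 where Aspp1-/-p53-/- was set against p53-/- cells, both under the rule and both beyond the scanner error. In Aspp1-/- against WT cells it was at −0.18, within that error. Comparisons with WT share the WT array and those with Aspp1-/-p53-/- share that array, so these values are not independent. Of the 19117 genes measured on all 4 arrays, 0.570% lay lower than Cdkn1a where Aspp1-/-p53-/- was set against WT and 0.502% where it was set against Aspp1-/-. The corresponding shares were 14.3% in Aspp1-/- and 1.09% in p53-/- against WT, and 1.36% where the Aspp1-/-p53-/- array was set against p53-/-. In sorted bulk cells, fewer cells with a transcript and less of it per cell cannot be told apart.

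The second Cdkn1a probe, A_55_P1976204, did not follow. Its signal was 156 on the WT, 151 on the Aspp1-/-, 142 on the p53-/- and 134 on the Aspp1-/-p53-/- array, well above background on all 4 arrays. The scaled log2 difference from WT was −0.12 with Aspp1 lost, −0.17 with p53 lost and −0.13 with both lost, with scanner errors of 0.21 to 0.22. In Aspp1-/-p53-/- cells it was 0.03 against p53-/- and −0.01 against Aspp1-/-. All 5 values lay within the scanner error.

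The third Cdkn1a probe, A_55_P1986282, exceeded background clearly in Aspp1-/- cells only, where its signal was 94.8. WT cells read 9.36, p53-/- cells 5.38 and Aspp1-/-p53-/- cells 5.13. Against an array where a probe is not well above background, the difference is a lower bound, set by the lowest signal there among probes well above background. The probe was at least 4.88-fold higher in Aspp1-/- than in WT cells and at least 3.60-fold lower in Aspp1-/-p53-/- than in Aspp1-/- cells. A probe well above background on the Aspp1-/- array alone was seen for 801 probes, or 1.44% of 55675, against 972 for WT, 918 for p53-/- and 785 for Aspp1-/-p53-/-. Of the 801 probes, 252 measured 4-fold or more over the next array, and 14.7% had a larger gap than A_55_P1986282. Where the mean over the Cdkn1a probes took the place of A_51_P363947, the log2 difference in Aspp1-/-p53-/- against WT was −0.82 and under the rule, and that in Aspp1-/- against WT was 0.99. The direction in Aspp1-/- cells thus depended on the probe, as A_55_P1986282 enters that mean, with values at background on the other arrays.

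In Aspp1-/-p53-/- cells, where Cdkn1a was lowest, granulocyte markers and immediate-early genes were lower as well. Markers of other cell types differed less by their medians. Of all genes, 5.67% differed 2-fold or more, in either direction, between Aspp1-/-p53-/- and WT cells. All 9 granulocyte markers were well above background in WT, and in Aspp1-/-p53-/- cells 7 of them fell 2-fold or more against WT, with a median log2 difference of −1.70 over the 8 measured on both arrays. Their summed scaled signal was 157 on the WT, 136 on the Aspp1-/-, 140.4 on the p53-/- and 53.9 on the Aspp1-/-p53-/- array. Immediate-early genes, which rise quickly when cells are handled, had sums of 1955, 1772, 1384.5 and 847, and 9 of 15 fell 2-fold or more in Aspp1-/-p53-/- against WT. Their order over the arrays was that of A_51_P363947. In p53-/- against WT, where Cdkn1a was at −0.73, the immediate-early median was −0.42 and the granulocyte median −0.18. Stromal and endothelial markers, of which Col1a1 and Cdh5 were on no array well above background, had sums from 10.3 to 12.8, and 2 of 9 fell 2-fold or more in Aspp1-/-p53-/- against WT. Of the 7 measured on both arrays, 5 were below 0 and 2 above, with a median of −0.58. The granulocyte genes named by the largest fall were Retnlg at -2.36, Ltf, the iron-binding lactoferrin, at −1.92 and Ngp at −1.84. The stromal genes that fell 2-fold or more were Cxcl12, a chemokine of the marrow niche, at -2.20 and Vcam1, an adhesion molecule, at -2.05. Both were dim on the Aspp1-/-p53-/- array, with signals of 36.5 and 39.9, though well above background. Of the immediate-early genes, the transcription factor Atf3 was lowest at -3.49. These names were chosen after their values were seen. In Aspp1-/- against WT, where the inhibitors' median was −0.18, the median was −0.40 for B cell markers (6 of 7 below 0), −0.36 for stromal and endothelial markers (6 of 7), −0.27 for monocyte and dendritic cell markers (7 of 8), −0.17 for granulocyte markers (7 of 9), −0.14 for erythroid (4 of 4), −0.10 for T and NK cell (3 of 5) and −0.05 for megakaryocyte markers (6 of 6), with none past 2-fold. In Aspp1-/-p53-/- against WT, B cell markers had a median of 0.08 and monocyte and dendritic cell markers one of 0.25. The median there was 0.02 for erythroid, −0.04 for megakaryocyte and −0.23 for T and NK cell markers. The part of these markers in the inhibitor values was not tested.

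**Figure D2:**
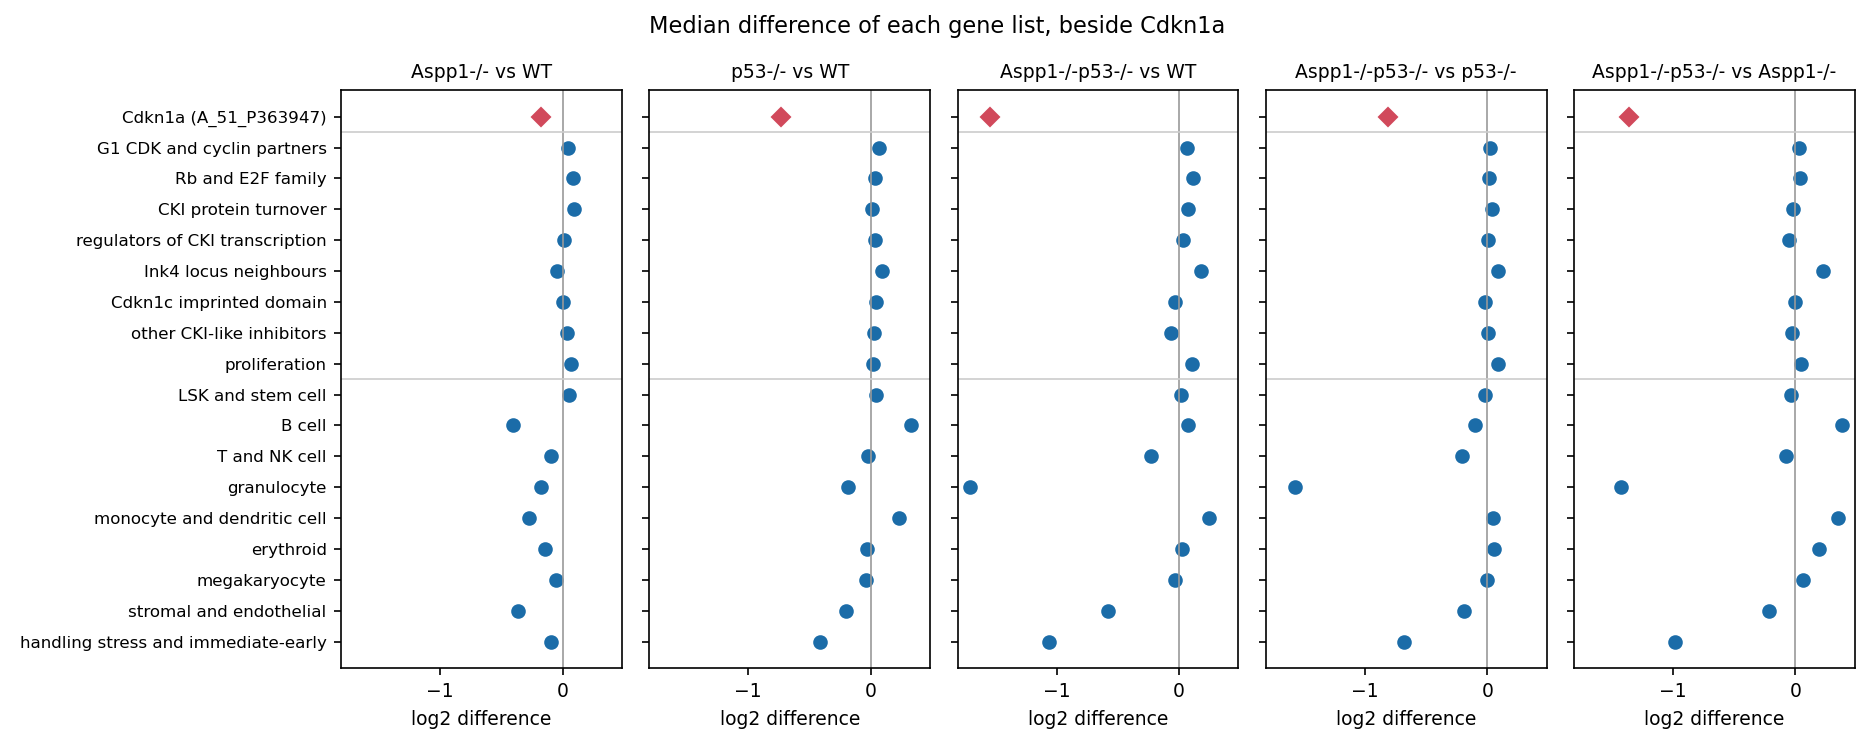
Median log2 difference of each gene list (circles) in the 5 comparisons, with Cdkn1a probe A_51_P363947 (diamond) on top; pathway lists stand above the lower grey line and cell type or handling markers below it. Cdkn1a at −1.54, granulocyte markers at −1.70 and immediate-early genes at −1.06 lie lowest in Aspp1-/-p53-/- against WT, while the 8 pathway lists stay near 0.

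The genes most like Cdkn1a were taken by the distance between their 3 log2 differences from WT and those of A_51_P363947, over 13307 named genes measured on all 4 arrays. They were Dgat2 (distance 0.13), an enzyme of triglyceride synthesis, Tiparp (0.19), a mono-ADP-ribosyltransferase, Il1b (0.21), the cytokine interleukin 1 beta, Thbs1 (0.21), a matrix glycoprotein, and Rasgef1b (0.24), a Ras exchange factor. The signal of Dgat2 was 901 on the WT, 793 on the Aspp1-/-, 529 on the p53-/- and 310.3 on the Aspp1-/-p53-/- array. That of Tiparp was 3922, 3532, 2332 and 1438 in the same order. All of these profiles rest on 4 arrays and share the WT array.

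Cdkn1b, the p27 gene, stayed under the rule in every comparison, and its probes differed in direction. Probe A_55_P2026562 gave 7059 on the WT, 6510.4 on the Aspp1-/-, 6801 on the p53-/- and 5568 on the Aspp1-/-p53-/- array. Its scaled log2 difference from WT was −0.19, −0.08 and −0.25 in these 3 genotypes, and only the last exceeded the scanner error of 0.20. Probe A_52_P673863 gave 214, 236, 261 and 284 in WT, Aspp1-/-, p53-/- and Aspp1-/-p53-/- cells. Its differences from WT were 0.07, 0.26 and 0.50, with a scanner error of 0.21. The upstream probe was thus highest, and the downstream probe lowest, on the array without either gene.

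Cdkn1c, the p57 gene, was read by 1 probe, A_51_P339540 (NM_009876, chr7:150644753-150644812, minus strand, mm9). Its signal was 959 on the WT, 885 on the Aspp1-/-, 805 on the p53-/- and 649 on the Aspp1-/-p53-/- array, the same order as for Cdkn1a. Set against WT, the log2 difference of Aspp1-/- was −0.19, that of p53-/- was −0.28 and that of Aspp1-/-p53-/- was −0.48, each with a scanner error of 0.20. Aspp1-/-p53-/- cells were at −0.20 against p53-/- and at −0.29 against Aspp1-/- cells. Neighbours in this order differed by no more than the scanner error, whereas the difference between WT and Aspp1-/-p53-/- cells exceeded it. No Cdkn1c value passed the rule of 2-fold.

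Of the Ink4 members, Cdkn2c and Cdkn2d were measured on all 4 arrays and neither passed the rule. Cdkn2c (p18; A_55_P2074796, NM_007671, chr4:109333508-109333567, minus strand, mm9) gave 707 on the WT, 703 on the Aspp1-/-, 689.8 on the p53-/- and 718 on the Aspp1-/-p53-/- array. Its 5 log2 differences lay between −0.08 and 0.19, all within the scanner error of 0.20. Of the 5 genes measured on all arrays it was the only one whose brightest probe was highest in Aspp1-/-p53-/- cells after scaling. Cdkn2d (p19; A_55_P2022251, NM_009878, chr9:21092934-21092993, minus strand, mm9) gave 6731, 6517, 6309 and 5368, also the order of Cdkn1a and Cdkn1c. Its log2 differences were −0.12 for each single loss against WT, and −0.24 for the combined loss against WT, where alone it exceeded the scanner error.

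Cdkn2a and Cdkn2b, which neighbour each other on chromosome 4 and encode the Cdk4 and Cdk6 inhibitors p16 and p15, were at or near background. The 2 Cdkn2a probes, A_55_P2008437 and A_55_P2008438, read signals between 4.17 and 5.91 and were not well above background on any array, so no fold was computed. The files assign both to NM_009877, a transcript of a gene that encodes both p16 and Arf. The Cdkn2b probe A_55_P1979526 was likewise not well above background on any array. Probe A_55_P1988183 gave 47.1 in Aspp1-/- cells, where it was well above background. WT cells read 8.69, p53-/- cells 5.58 and Aspp1-/-p53-/- cells 5.32, where it was not. Cdkn2b was thus at least 2.43-fold higher in Aspp1-/- than in WT cells, and at least 1.79-fold lower in Aspp1-/-p53-/- than in Aspp1-/- cells. With normexp background correction the first of these was under 2-fold. That correction adds 50 to every corrected intensity, more than the 47.1 on the Aspp1-/- array. It therefore shrinks the ratios of dim probes and was no test of this call. Both dim probes that stood out on the Aspp1-/- array, A_55_P1988183 and A_55_P1986282 of Cdkn1a, were single spots. Of the 801 probes well above background on that array alone, 25.5% had a larger gap to the next array than A_55_P1988183.

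**Figure D3:**
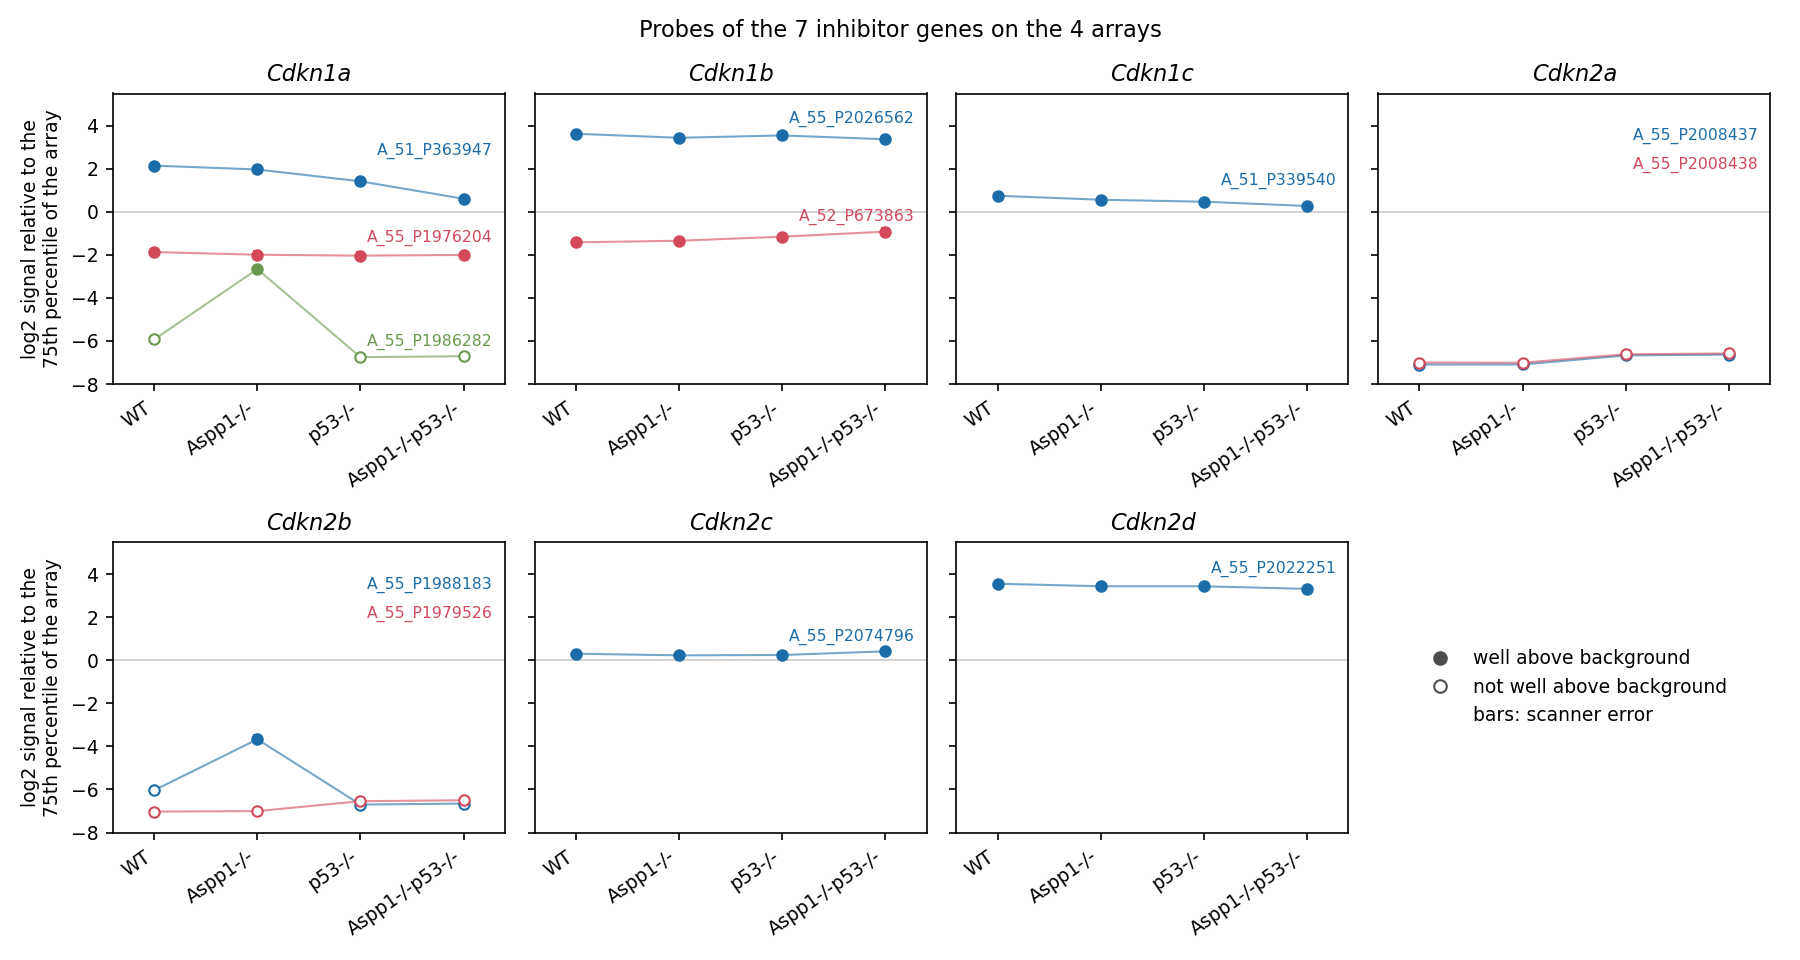
Log2 signal relative to each array's 75th percentile for all 12 probes of the 7 genes on the 4 arrays; filled circles are well above background, open circles are not, and bars, mostly hidden by the circles, show the scanner error. Cdkn1a probe A_51_P363947 goes from 2.15 in WT to 0.61 in Aspp1-/-p53-/- cells, the probes of Cdkn1b, Cdkn1c, Cdkn2c and Cdkn2d stay within 0.50 of their WT values, and the dim probes of Cdkn1a and Cdkn2b exceed background in Aspp1-/- cells only.

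Counted over the gene family, 1 gene passed the rule in 3 of the 5 comparisons and none in the other two. In Aspp1-/- against WT it was Cdkn2b, as a bound, out of 6 genes measured on at least 1 of the arrays; among all genes 2.52% passed. In p53-/- against WT 0 of 5 passed, beside 4.76% of all genes. In Aspp1-/-p53-/- against WT 1 of 5 passed, Cdkn1a, beside 5.67%. In Aspp1-/-p53-/- against p53-/- 0 of 5 passed, beside 5.58%, and against Aspp1-/- 1 of 6, again Cdkn1a, beside 4.87%. With 5 or 6 genes, 1 call is too few to set a share against these. Where the measured difference replaced the bound, a choice made after seeing the data, Cdkn2b passed as well in Aspp1-/-p53-/- against Aspp1-/-, and 2 genes were called.

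By their brightest probes, most of the 5 genes measured on all arrays lay below 0. All 5 were below 0 for each single loss against WT, and 4 of 5 in each of the other comparisons, with Cdkn2c the exception. Their median log2 difference from WT was −0.18 with Aspp1 lost, −0.12 with p53 lost and −0.25 with both lost. It was −0.18 in Aspp1-/-p53-/- against p53-/- and −0.12 against Aspp1-/-. Over the 19117 genes measured on all arrays the median lay within 0.02 of 0 in every comparison, and between 45.4% and 51.0% of genes were below 0. None of the 5 values in Aspp1-/- against WT exceeded the scanner error. The counts depended on the probe: with the mean over a gene's probes, 4 of 5 genes were below 0 for each single loss against WT and 3 of 5 in the other comparisons, as Cdkn1a turned above 0 in Aspp1-/- against WT and Cdkn1b in the rest. Apart from Cdkn1a, the largest difference of a brightest probe was the −0.48 of Cdkn1c in Aspp1-/-p53-/- against WT, and the dimmer Cdkn1b probe A_52_P673863 was at 0.50 there.

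**Figure D4:**
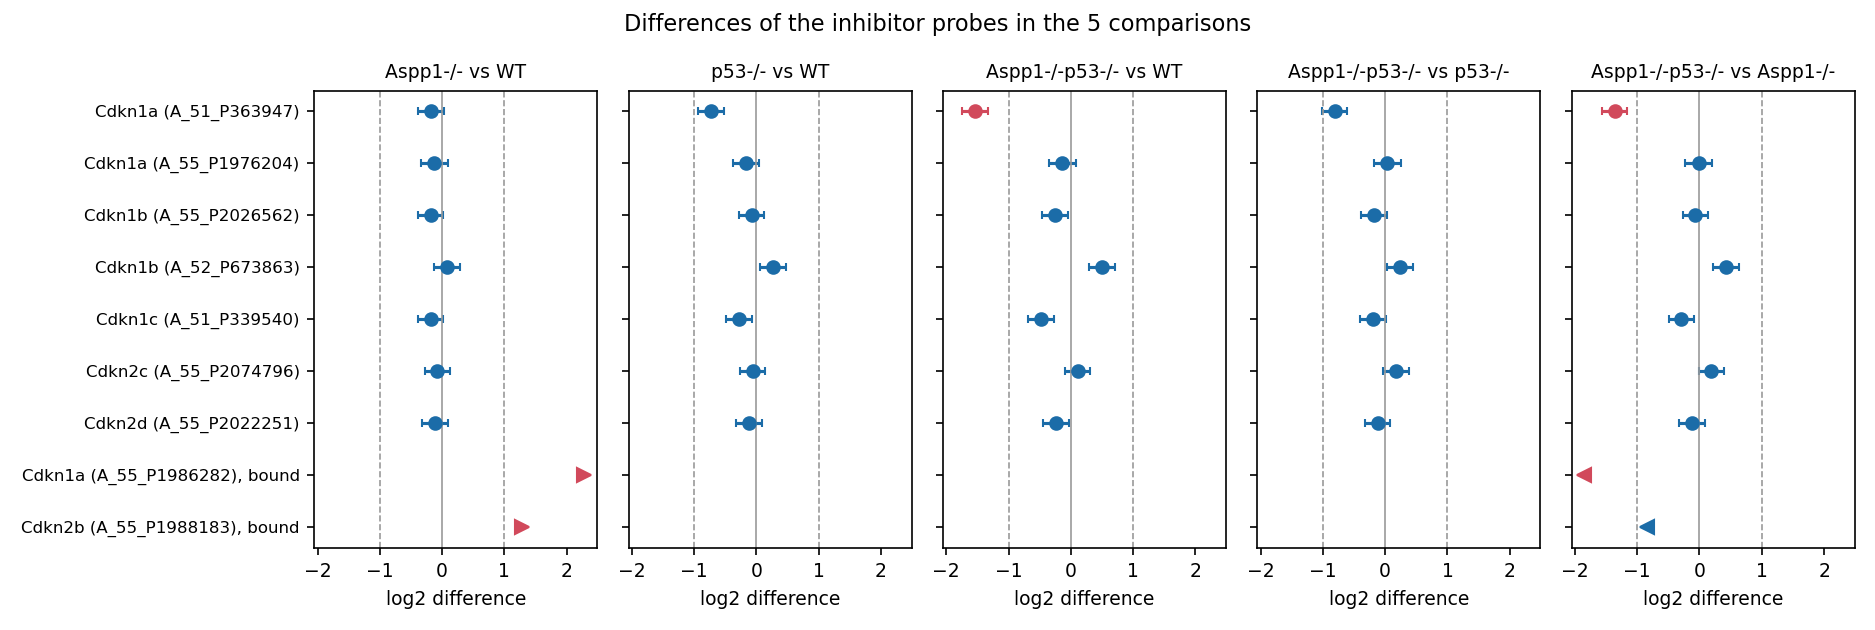
Log2 differences of the inhibitor probes in the 5 comparisons, with bars for the scanner error of the difference; triangles are bounds, dashed lines mark 2-fold, and red marks values past it. Among probes measured on all arrays, A_51_P363947 of Cdkn1a alone passes the rule, at −1.54 and −1.36, and the 2 Cdkn1b probes lie on opposite sides of 0 in all 5 comparisons.

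The design with both single losses and their combination allows the combined loss to be set against the sum of the single ones. For Cdkn1a (A_51_P363947) the single differences from WT summed to −0.91, whereas Aspp1-/-p53-/- cells were at −1.54, a departure of −0.63 with a scanner error of 0.29. Loss of Aspp1 came with −0.18 where p53 was present and −0.81 where it was absent. Of 19132 genes with any probe measured on all arrays (19117 where only the brightest probe counts), 2.80% had a lower departure, and the standard deviation of all departures was 0.32. No member departed by 1 or more, beside 1.83% of all genes. For the other 6 probes measured on all arrays the departure was between −0.01 and 0.25, within the scanner error of 0.29 to 0.31. With 1 array per genotype the departure has no test of its own.

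**Figure D5:**
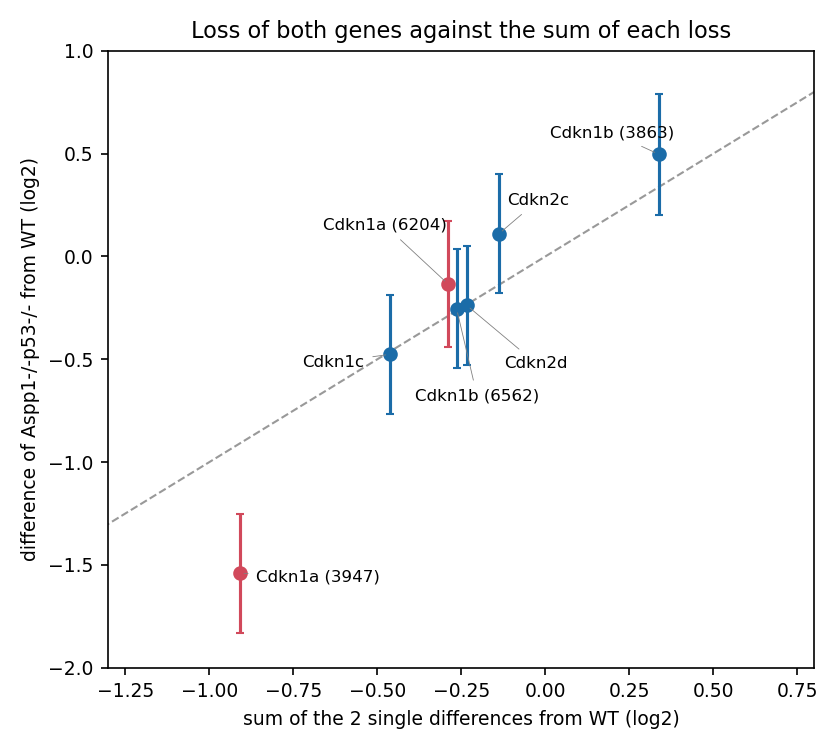
Log2 difference of Aspp1-/-p53-/- from WT (vertical axis, with the scanner error of the departure as bars) against the sum of the Aspp1-/- and p53-/- differences from WT (horizontal axis) for the 7 probes measured on all 4 arrays, labelled by gene and, for Cdkn1a (red) and Cdkn1b, the last 4 digits of the probe. Cdkn1a probe A_51_P363947 lies below the dashed line of equal values, at −1.54 against −0.91, and the bars of the other 6 probes reach the line.

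An additive model of both genotypes, fitted with limma over 32494 probes with 1 residual degree of freedom, was the only test the design allowed. Its residual is the departure from additivity in every fit. The standard errors and p-values therefore hold no spread between animals. Each effect averages the differences with and without the other gene. For Cdkn1a (A_51_P363947), p53 loss came with −0.73 where Aspp1 was present and −1.36 where it was absent. Aspp1 loss came with −0.18 where p53 was present and −0.81 where it was absent. The effect of p53 loss on Cdkn1a (A_51_P363947) was −1.05 with a standard error of 0.23, lower on both arrays without p53 than on either array with it (adjusted p = 0.637 over all probes by limma). For Cdkn1c it was −0.28 with a standard error of 0.06 (adjusted p = 0.637 by limma). The effect of Aspp1 loss was −0.49 for Cdkn1a and −0.19 for Cdkn1c, each with an adjusted p of 0.751 by limma. No member and no probe in all, 0%, reached an adjusted p under 0.05 for either effect by limma, while 2530 probes for p53 and 1510 for Aspp1 had an unadjusted p under 0.05. On simulated data this model called 0 of 100 probes changed by 1 and 0 of 100 changed by 2 on the log2 scale, so a lack of calls says nothing of stability. With limma's trend option for the prior variance, 395 probes (1.22%) were called for p53, and Cdkn1a was among them at an adjusted p of 0.0443. The adjusted p of Cdkn1a for p53 loss otherwise ranged from 0.317 to 0.669 over the alternatives.

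Genes of the cell cycle machinery around the inhibitors were under 2-fold where both arrays measured them. Of 16 cyclins and kinases of G1 that the inhibitors bind or act beside, 14 were measured on both arrays of every comparison, none passed, and their median log2 difference from WT was 0.04 with Aspp1 lost, 0.06 with p53 lost and 0.07 with both lost. Among them Ccne1, the cyclin partner of Cdk2, was at 0.31 in Aspp1-/-p53-/- against WT, Ccnd1, a partner of Cdk4 and Cdk6, at 0.25, Cdk2 at 0.20 and Ccna2 at 0.19. Of the 16 genes of the retinoblastoma and E2F family none passed, 12 were above 0 in Aspp1-/-p53-/- against WT, and E2f3, an activating E2F factor, was at 0.40. Of 12 genes for the turnover of inhibitor proteins none passed, and Skp2, the ligase subunit that recognises p27, was at 0.25 with Aspp1 lost, 0.36 with p53 lost and 0.54 with both lost, each against WT.

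Proliferation genes had a median slightly above 0 in each of the other genotypes against WT. In Aspp1-/- against WT, where Cdkn1a (A_51_P363947) was at −0.18, 16 of 20 were above 0, with a median of 0.07. In p53-/- against WT, where Cdkn1a was at −0.73, 13 of 20 were above 0, with a median of 0.02. In Aspp1-/-p53-/- against WT 18 of 20 were above 0, with a median of 0.10, and none passed the rule. Against p53-/- cells all 20 were above 0, with a median of 0.09, while 51.0% of all genes measured on all arrays were below 0. Among them Tyms, a nucleotide synthesis enzyme, was at 0.27, Plk1, a mitotic kinase, at 0.23 and Aurka, another, at 0.20 in Aspp1-/-p53-/- against WT. These values are of the size of the scanner error. A link of the proliferation genes to Cdkn1a was not tested.

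Among 32 transcriptional regulators of the inhibitors, 31 were measured and 1 passed the rule, in each comparison of Aspp1-/-p53-/- cells. Of all genes, 5.67% passed against WT, 5.58% against p53-/- and 4.87% against Aspp1-/-. A call for 1 of 31 genes was not above these shares. Klf4, a zinc finger factor known to activate Cdkn1a, gave a signal of 19890.2 on the WT, 20902 on the Aspp1-/-, 14295 on the p53-/- and 6229 on the Aspp1-/-p53-/- array. Its log2 difference in Aspp1-/-p53-/- cells was −1.59 against WT, −1.09 against p53-/- and −1.59 against Aspp1-/-, past the rule in each, and it is also on the immediate-early list. In Aspp1-/-p53-/- against WT Foxo3, which activates Cdkn1a and Cdkn1b, was at −0.75, Egr1, also immediate-early, at −0.78, and Mycn, of the Myc family, at 0.96, all under the rule. The median of the list in Aspp1-/-p53-/- against WT was 0.03.

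Of 9 other inhibitor-like genes 8 were measured, and Cdk5rap1, an RNA-modifying enzyme named for its binding to a Cdk5 activator, rose in Aspp1-/-p53-/- cells. Its signal was 1785 on the WT, 2616 on the Aspp1-/-, 2525 on the p53-/- and 3483 on the Aspp1-/-p53-/- array, a log2 difference from WT of 1.05 on the last. Tob1, an antiproliferative gene, was at −0.67 and Cables1, a Cdk-binding protein, at −0.42 in the same comparison. In the imprinted domain that holds Cdkn1c, 11 genes were measured on at least 1 array. Kcnq1, a potassium channel gene of that domain, passed as a bound. It was well above background on the Aspp1-/-p53-/- array only, with a signal of 282 beside 4.24 in WT, 6.64 in Aspp1-/- and 5.68 in p53-/- cells. Of the rest of the domain Kcnq1ot1, the antisense RNA that silences it on 1 parental copy, was at 0.45 and Tssc4 at −0.56 in Aspp1-/-p53-/- against WT. Of 6 neighbours of the Ink4 genes 2 were measured, Mtap at 0.28 and Klhl9 at 0.07, with none past the rule. Beside the 5.67% of all genes past it in Aspp1-/-p53-/- against WT, these lists are too short for a share of their own.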

How the data were processed

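The deposited scanner files hold the processed spot intensity, already background-subtracted (by version 10.7.3.1 of Agilent's Feature Extraction software, per the file headers), not normalised between arrays, with flags, coded as other values, for spots well above background. The authors' value table holds log2 values that differed from the log2 processed intensity by a constant per array once each probe was centred; its column medians were −0.0657, −0.0417, 0.0263 and 0.0475, and no source used here gives how the constant was set. RNA was pooled from 3 mice per genotype, per the labels' protocols.

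Control spots (3671 per array) and 120 to 172 outlier spots per array were dropped, repeated spots were averaged, and log2 intensity was set relative to the array's 75th percentile. A probe counted as well above background where more than 0.5 of its spots did. A gene was represented by its brightest probe that was well above background on any array. Probes were named by RefSeq accession (26760), by symbol only (3818), or kept as transcripts (25097). The rule of size was a log2 difference of 1; the lowest log2 values well above background, which set the bounds, were −4.95, −4.89, −4.54 and −4.51. The scanner error is the software's own error of the processed intensity. The additive model used lmFit and eBayes of limma 3.58.1 in R 4.3.3 with Benjamini-Hochberg adjustment, and was tested on simulated data. With 4 arrays, their number limits the precision of every value.

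Every member probe is named. Of each pathway list the text names the members past 2-fold in any comparison, or some of the 4 with the largest difference in Aspp1-/-p53-/- against WT. Marker lists are given by counts and medians, with a few genes of the largest falls named after their values were seen. The members, lists and rules were chosen with earlier results of these data known, so they are not independent support for any pattern.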

Additional observations from a re-analysis of the deposited data

Results flagged for a closer look

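In 2 members the loss of a gene came with opposite signs depending on the other gene. The difference was not tested, since each sign rests on a pair of arrays. For Cdkn1a probe A_55_P1976204, Aspp1-/- cells were at −0.12 against WT and Aspp1-/-p53-/- cells at 0.03 against p53-/- cells, which differ by 0.16 with a scanner error of 0.31. For Cdkn2c, Aspp1 loss came with −0.08 where p53 was present and 0.17 where it was absent. Loss of p53 came with −0.06 where Aspp1 was present and 0.19 where it was absent. Both Cdkn2c contrasts differ by 0.25, with a scanner error of 0.29.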

How the results depend on the processing

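No paired analysis was possible because each genotype had 1 array, and for the same reason no array could be left out. Of the counts over the inhibitor genes, 48 values under the alternatives kept their call, 4 gained one and 3 lost one. The 1 gene past 2-fold in Aspp1-/- against WT, Cdkn2b, became 0 with normexp background correction. That correction adds 50 to every corrected intensity, which shrinks the ratios of dim probes. The count also became 0 over probes measured on all 4 arrays, a setting that leaves Cdkn2b out. The 1 gene in Aspp1-/-p53-/- against WT became 0 with the mean over a gene's probes, which also gave 1 departure from additivity in place of 0, Cdkn1a at −1.23. The 1 gene in Aspp1-/-p53-/- against Aspp1-/- became 2 with the authors' value table, where no bound was set. It also became 2 with the measured difference in place of the bound, an alternative added after seeing the data. The p53 effect in the additive model had 1 member called with the trend option in place of 0. The mean over probes also moved Cdkn1a to 0.99 in Aspp1-/- against WT, to −0.82 in Aspp1-/-p53-/- against WT, to −0.24 against p53-/- and to −1.81 against Aspp1-/-. It turned the sign of Cdkn1b, whose probes disagree, to 0.09 where p53-/- was set against WT, and for Aspp1-/-p53-/- to 0.12 against WT, 0.03 against p53-/- and 0.18 against Aspp1-/-. The genes of the 8 pathway lists past 2-fold went, with the authors' value table or the measured difference, from 0 to 1 in Aspp1-/- against WT (Igf2), from 3 to 5 in Aspp1-/-p53-/- against WT (Ccne2 and Skp1a added) and from 2 to 4 against Aspp1-/- (Igf2 and Skp1a added). Each of these was at background on the dimmer array. Over probes measured on all 4 arrays, Kcnq1 left all 3 counts, which became 2 against WT, 1 against p53-/- and 1 against Aspp1-/-. Cdk5rap1 fell under the rule with normexp and with the mean over probes, which left 2 against WT. Under the 5 other alternatives Cdkn1a (A_51_P363947) kept its sign in all comparisons. Signals near background limit Cdkn2a, Cdkn2b and Cdkn1a probe A_55_P1986282, which have bounds or no value.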
